A study of Mus musculus with 4 samples.

Results

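The axon guidance ligands and receptors counted here are the semaphorins of classes 3 to 7 with their plexin and neuropilin receptors, the Slits with the Robos, the netrins with Dcc and the Unc5 receptors, and the ephrins with the Eph receptors. Members were chosen by gene symbol alone, and the symbols picked 70 of the 37308 genes of the count tables, 37 ligands and 33 receptors. RNA was from C57Bl/6 wild-type male mice, either mature (3 months old) or elderly (24 months old), with 2 libraries per age and no treatment in either group. The labels name whole bone marrow as source, while the study's methods describe marrow cells sorted as Lin-LEPR+, that is negative for Ter119, CD31 and CD45 and positive for the leptin receptor, a fraction that holds skeletal stem/progenitor cells (SSPCs). The sample titles number single mice, while the methods describe RNA pooled from several mice per group, and neither says whether each library was a pool of its own. Every SD and p-value below therefore covers only how these libraries varied. The methods also name a sample by an age in weeks that was processed as total RNA rather than poly(A) RNA. If it is among these libraries it could only be a mature one, so that for the mature group library preparation and age cannot be told apart. Histone cluster genes, whose replication-dependent transcripts mostly lack a poly(A) tail, summed to 1009 and 664 CPM (scaled counts, explained below) in mature and 2358 and 1645 CPM in elderly libraries. A list of 15 proliferation genes summed to 443.7 and 213.8 CPM in mature and 1157 and 807.2 CPM in elderly libraries. The parts of library preparation and of proliferation in the histone sums were not tested.

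Guidance cues were first described as signals that attract or repel growing axons, and the same ligands and receptors act in blood vessels, immune cells and bone. Semaphorins signal through plexins, with neuropilins as co-receptors for most secreted class 3 members, Slits through Robos, and netrins through Dcc and Unc5 receptors. Ephrins and Eph receptors both sit in the membrane and signal between touching cells. In bone, semaphorins, ephrin-B with EphB receptors and Slits are known as signals among osteoblasts, osteoclasts and vessels.

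The libraries held between 10472117 and 15650518 counts, and library totals scaled by TMM (a factor that aligns most genes between libraries) give the scaled counts used here, CPM. Lepr was counted at 4118 to 6413 CPM and Cxcl12, the chemokine of the same stromal cells, at 7202 to 13701 CPM. All 12 markers of LEPR+ stromal cells were fitted lower in elderly mice, beside 50.4% of all genes tested. Of the 12 markers 4 had an unadjusted p under 0.05 in edgeR, beside 10.9% of all genes tested. None of the 12 was called by edgeR or DESeq2. The 12 markers had a median log2 fold change of -0.333. Their summed CPM was 37858 and 37700 in mature and 24183 and 32966 in elderly libraries. Ptprc, which encodes CD45, was at 0.346 and 0.0861 CPM in mature and 1.08 and 0.520 CPM in elderly libraries. Only 152 of its bases could be counted, with at most 12 counts in a library, so these values do not show how pure the sort was. Among 10 tested markers of neutrophils 6 were called higher in elderly mice, with a summed CPM of 2127 and 1219 against 4561 and 4422. Of 10 tested markers of glia and neurons 3 were called higher, beside 1.94% of all genes tested. In bulk RNA, fewer cells of a type and less RNA per cell cannot be told apart. The part of these shifts in any result below was not tested.

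The files count reads only on bases that belong to a single annotated transcript, so levels between genes are given as CPM per 1000 such countable bases. Members had a median of 2242 countable bases, 19 had fewer than 1000, and Ntn5 had none. A count near 0 in Ephb6 (13 countable bases), Unc5b (33), Plxnb3 (92), Sema3f (93) or Epha4 (150) therefore does not show that the gene was silent. Of the 70 members, 8 had 0 counts in every library: Dcc, Epha5, Epha6, Ephb1, Ephb6, Ntn5, Robo3 and Sema5b. Another 4 members had at most 2 counts in all (Epha8, Ntn1, Ntng1 and Unc5d), and these 12 were not tested. A floor of 3 counts per library, which corresponds to 0.195 to 0.27 CPM and covers counting error only, was not passed in any library by 15 members, the 12 above and Sema3f, Unc5a and Unc5b. At the other end 42 members reached a mean of 1 CPM, 25 reached 10 CPM and 11 reached 100 CPM.

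**Figure D1:**
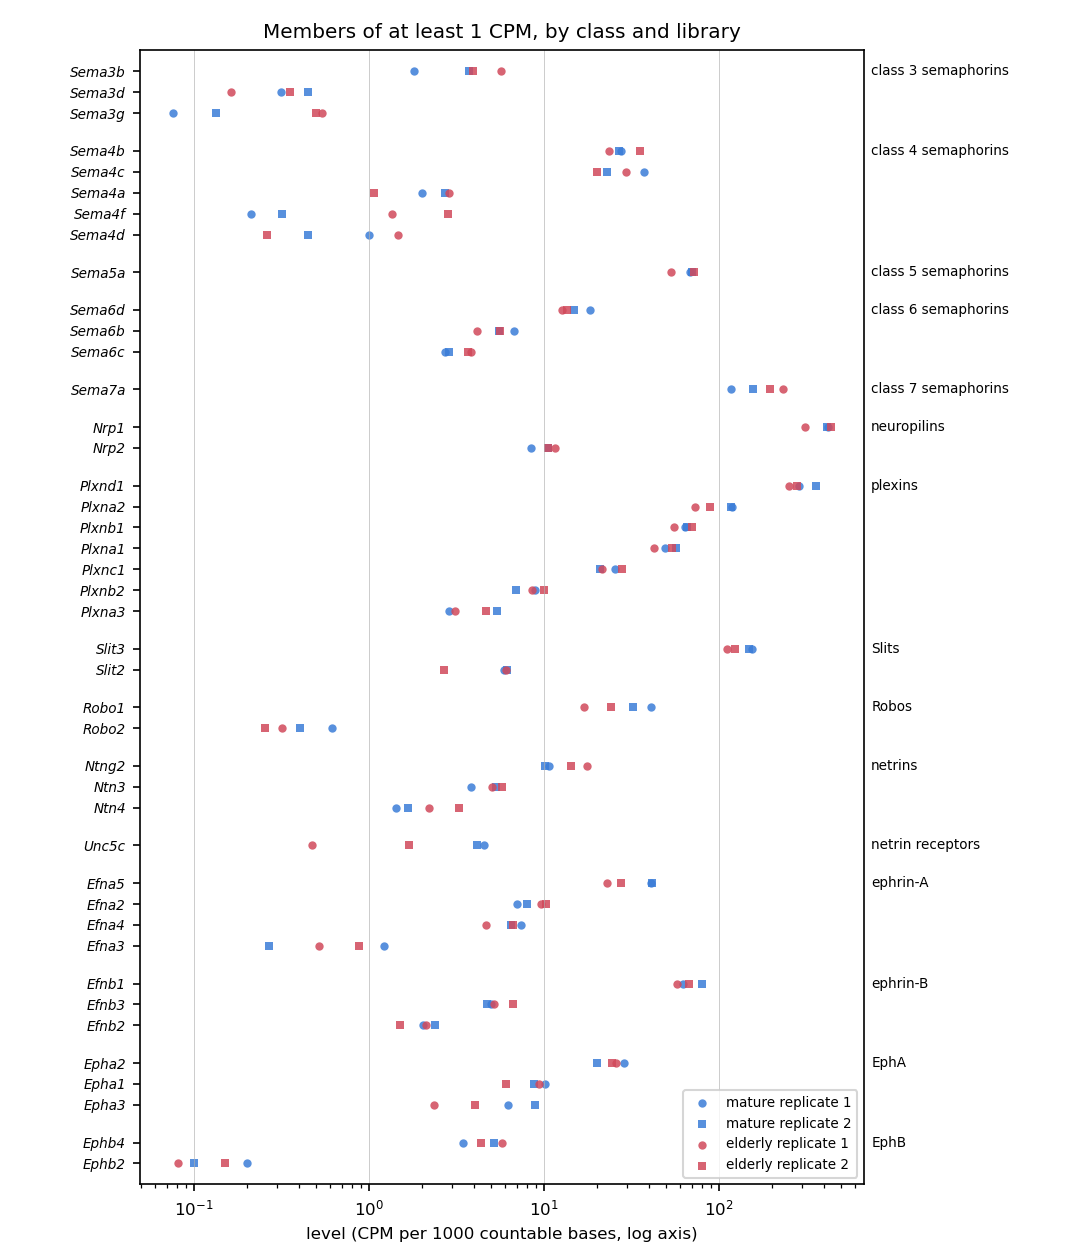
Level of the 42 members of at least 1 CPM in each of the 4 libraries (x axis, CPM per 1000 countable bases, log axis), grouped by class, with mature libraries in blue, elderly in red, replicate 1 as circles and replicate 2 as squares. Nrp1 and Plxnd1 lead at a mean level of 395 and 294, and for most members the blue and red points interleave.

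Levels were concentrated in few members. The 5 with the highest level per length, Nrp1, Plxnd1, Sema7a, Slit3 and Plxna2, held 66.5% of the summed level of all members, and the 10 highest held 83.5%. The order was close to the same in every library, with 9 of the 10 highest members shared by all 4. Nrp1 and Plxnd1 ranked first and second in each of them.

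Few members were called with age. In the fit over all 22214 genes tested, edgeR's quasi-likelihood test called 1 member higher in elderly mice (Sema4f) and 1 member lower (Unc5c) at a Benjamini-Hochberg adjusted p under 0.05. Together these are 3.45% of the 58 members tested, beside a background of 1.94% of all genes called higher and 0.423% called lower, so 2 calls among 58 is a share near that of genes at large. DESeq2 called Sema4f higher and Epha3 and Robo1 lower. At an unadjusted threshold of 0.05 in edgeR, 10 members passed, which is 17.2% of those tested beside 10.9% of all genes. On the higher side these 5 were Sema4f, Sema3g, Sema7a, Ntn4 and Ntng2, and on the lower side the 5 were Unc5c, Epha3, Robo1, Efna5 and Plxna2. The median log2 fold change (elderly over mature) was -0.142 over the members and -0.006 over all genes. Both elderly libraries lay above both mature ones in 11 members and below in another 11, 18.97% each, beside 22% and 18.9% of all genes.

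Ligands and receptors were also counted apart. Of 33 ligands tested, both elderly libraries lay above both mature ones in 10 (30.3%) and below in 4 (12.12%). Of 25 receptors tested they lay above in 1 (4%), Plxna4, and below in 7 (28%). Over all genes tested these shares were 22% above and 18.9% below. The difference between ligands and receptors was not tested. Their median log2 fold changes were -0.149 and -0.134. Among the 25 members of at least 10 CPM, where counting error is small, both elderly libraries lay above in 4 and below in 8, with a median of -0.155, beside 22.4%, 23.8% and -0.031 over all genes of that level.

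**Figure D2:**
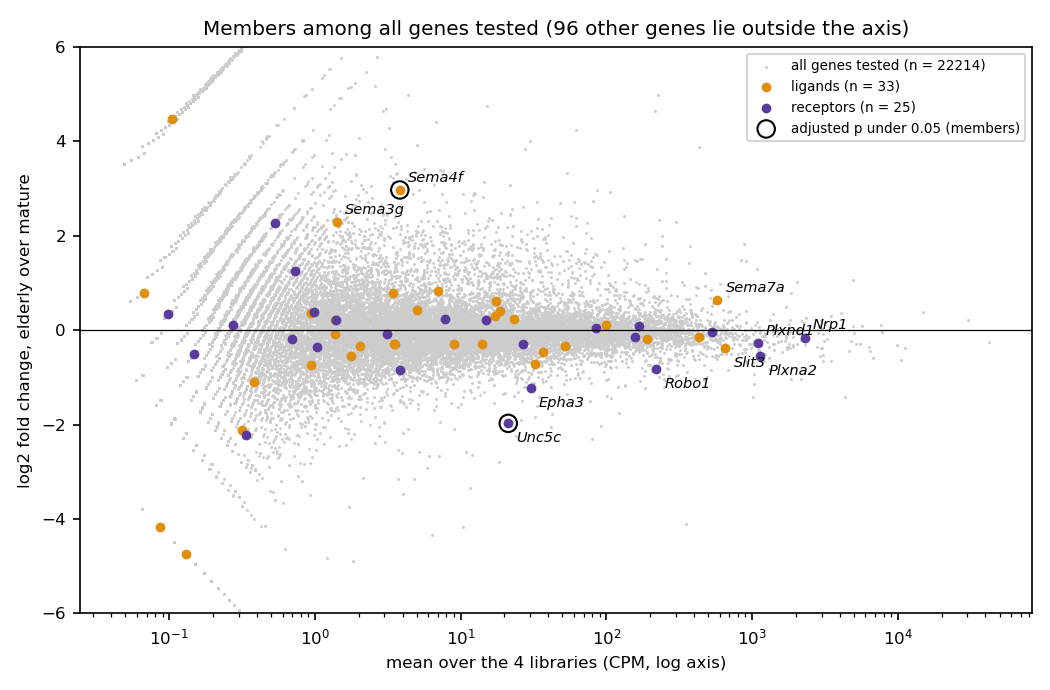
Log2 fold change of elderly over mature mice (y axis) against the mean over the 4 libraries (x axis, CPM, log axis) for 22214 tested genes in grey, 33 ligands in orange and 25 receptors in purple. Black rings mark Sema4f and Unc5c, the members called at an adjusted p under 0.05, and most other members of at least 10 CPM lie near 0.

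Sema4f, a transmembrane class 4 semaphorin, was the member called higher in elderly mice, and it rose from a level near 1 CPM. It lies on chr6:82861879-82889763 (minus strand, NCBI Build 37), and its 4 libraries held 8 and 12 counts in mature and 49 and 141 counts in elderly mice. In CPM these are 0.692 and 1.03 against 4.41 and 9.17, or 0.863 ± 0.242 against 6.79 ± 3.36 (SD, n = 2 each). The groups did not overlap, and the values of the elderly pair lay far apart. The log2 fold change was 2.97 (SE 0.51, 95% interval 1.85 to 4.09), with an adjusted p of 0.0109 by edgeR's quasi-likelihood test. All of its counts fell on its coding transcript, which was called on its own at a log2 fold change of 3.04. Even in elderly mice its level of 2.09 per 1000 countable bases was small beside that of Sema4b, 28.3 over the 4 libraries.

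Unc5c, a netrin receptor associated with repulsion, was the member called lower in elderly mice. It spans chr3:141128528-141497888 (plus strand, NCBI Build 37) and was counted 412 and 375 times in mature and 41 and 205 times in elderly libraries. The values of 35.6 and 32.3 CPM in mature mice lay close together, whereas those of 3.69 and 13.3 CPM in elderly mice lay far apart, and the groups did not overlap. Unc5c fell by 1.97 on the log2 scale (SE 0.44, 95% interval -2.92 to -1.02), with an adjusted p of 0.0362 by the same test. Its mean was 34.0 ± 2.35 CPM in mature and 8.51 ± 6.81 CPM in elderly mice (SD, n = 2 each). DESeq2 gave an adjusted p of 0.261 and edgeR's exact test at the study's dispersion 0.178, so its call depended on the test, while Sema4f was called by both. With either elderly library left out, the fit called 0 genes of the whole table and neither member, while the log2 fold changes stayed at 2.34 to 3.42 for Sema4f and -3.19 to -1.32 for Unc5c over the 4 leave-outs.

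**Figure D3:**
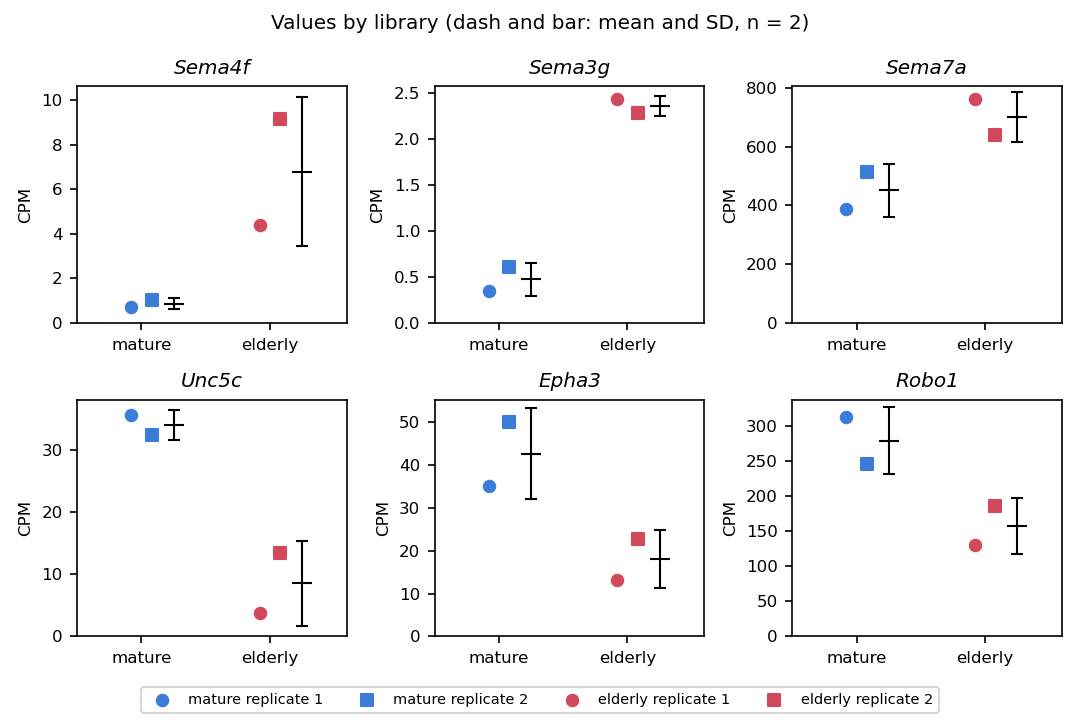
CPM of 6 members in each library (y axis, linear and from 0), with mature libraries in blue and elderly in red, and the mean and SD of each age (n = 2) as a dash and bar beside the points. Sema4f, Sema3g and Sema7a lie higher and Unc5c, Epha3 and Robo1 lower in both elderly libraries than in both mature ones, and only Sema4f and Unc5c passed the test.

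Lower counts of Unc5c were seen on 2 annotated transcripts. Its coding transcript, with 16 exons, was counted 377 and 338 times in mature and 41 and 202 times in elderly libraries, and fell by 1.77 on the log2 scale (SE 0.40, adjusted p = 0.017 by edgeR's quasi-likelihood test on transcripts). A transcript annotated as a retained intron, which runs past exon 2 (chr3:141340951-141341172) for 2590 bases into the intron of 36435 bases, held 30 and 33 counts in mature and 0 and 3 in elderly libraries. Both elderly libraries were at or under the floor. Taken against 3 counts per library this transcript was 11.7-fold lower, which is not a confidence limit. The fitted log2 fold change was -4.436 (SE 0.825, adjusted p = 0.00362 by the same edgeR test). Of 139 member transcripts tested, 1 was called higher (the coding transcript of Sema4f) and 2 lower (both of Unc5c), beside 1.65% of the 42351 transcripts tested in either direction. Over the 8418 retained-intron transcripts tested in the series, 16 were called higher and 13 lower, with a median log2 fold change of -0.103 beside 0.062 over coding transcripts. The part of this in the lower count of the Unc5c transcript was not tested. Unspliced RNA of the coding transcript would be counted on the same intron bases, so these counts do not show a separate transcript. Whether a mature library was made from total RNA is not known, and its part in these counts was not tested. The border at which the transcripts part is shown because reads to its right are counted on the retained-intron transcript alone. It is written 5′ to 3′ from the NCBI Build 37 genome, chr3:141341133-141341212 (plus strand), with the last 40 bases of exon 2 in capitals and the first 40 of intron 2 in lower case:
Unc5c border: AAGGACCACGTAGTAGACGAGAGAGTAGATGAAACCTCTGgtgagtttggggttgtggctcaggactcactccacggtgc

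The promoters of the called members, 1 that rose and 1 that fell, are given so that their sequence can be read beside these values. RefSeq promoters (GRCm38.p6) were matched by symbol for 60 of the 70 members and were read from 250 bases before to 30 bases after the start. Letters were searched on both strands in all 32851 promoters of this length. The TATA box letters TATAAA were held by 13.1% of them. The CCAAT box letters were held by 36.1%, and the GC box letters GGGCGG by 34.7%. Sema4f (chr6:82939740-82940019, minus strand) held CCAAT on the opposite strand at 2 places, starting 42 and 14 bases before the start and shown in capitals as its complement, and neither of the other motifs. Unc5c (chr3:141465314-141465593, plus strand) held none of them. It held 24 CG pairs against 5 in Sema4f and a median of 6 over all promoters. A match is a description of letters and not of a bound factor.
Sema4f: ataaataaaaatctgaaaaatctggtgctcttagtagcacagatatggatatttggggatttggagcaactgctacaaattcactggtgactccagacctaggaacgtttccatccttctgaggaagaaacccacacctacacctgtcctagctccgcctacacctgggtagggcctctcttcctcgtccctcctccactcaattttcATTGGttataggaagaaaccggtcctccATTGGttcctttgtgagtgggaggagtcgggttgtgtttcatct
Unc5c: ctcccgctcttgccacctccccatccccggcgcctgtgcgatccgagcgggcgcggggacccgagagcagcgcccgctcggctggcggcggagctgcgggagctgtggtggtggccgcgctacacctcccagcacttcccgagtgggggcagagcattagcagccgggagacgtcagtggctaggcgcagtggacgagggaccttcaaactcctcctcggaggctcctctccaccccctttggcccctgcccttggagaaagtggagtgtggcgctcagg

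Among the secreted class 3 semaphorins, all 7 members were tested and none was called. Sema3g was counted 4 and 7 times in mature and 27 and 35 times in elderly libraries. These are 0.346 and 0.603 CPM against 2.43 and 2.28 CPM, which do not overlap, but its log2 fold change of 2.29 (95% interval 0.87 to 3.71) had an adjusted p of 0.116. Sema3b, which lay at 1.64 and 3.36 CPM in mature and 5.13 and 3.58 CPM in elderly mice, had the highest level per length of the class (3.78), with 38.8% of its counts on coding transcripts. Sema3f had at most 2 counts in any library on its 93 countable bases. Sema3a, a ligand known to protect bone, was at 0.520 to 1.47 CPM. Sema3e, known to bind Plxnd1 directly, was at 0 in 3 libraries and at 6 counts in the other. Beside its receptors the class was low, at a summed level per 1000 countable bases of 3.54 to 8.45 in a library against 321 to 448 for the neuropilins.

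Class 4 semaphorins, membrane proteins of which several bind B plexins, held 6 tested members. Sema4b was at 96.9 and 93.5 CPM in mature and 82.5 and 123 CPM in elderly mice, with a log2 fold change of 0.11 (95% interval -0.37 to 0.59). Sema4c was at 19.1 and 11.7 against 15.0 and 10.3 CPM, and 62.8% of its counts lay on coding transcripts. In both the groups overlapped. Sema4a, Sema4d and Sema4g lay below 5 CPM in every library.

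Class 5 was represented by Sema5a, a transmembrane semaphorin with thrombospondin repeats, at 450 and 462 CPM in mature and 348 and 474 CPM in elderly mice. The groups overlapped, and the log2 fold change was -0.15 (95% interval -0.59 to 0.29). In class 6, transmembrane ligands of A plexins, Sema6d lay at 64.2 and 51.6 against 44.5 and 47.6 CPM with a log2 fold change of -0.33 (adjusted p = 0.652). All of its counts were on a transcript annotated as a retained intron, so its level is not that of the coding transcript. Sema6b (2.51, 2.07, 1.53 and 2.08 CPM) had 371 countable bases. Sema6c (4.15, 4.39, 5.86 and 5.66 CPM) had no countable base on a coding transcript, so that its coding transcripts could not be read.

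Sema7a, the GPI-anchored semaphorin that binds Plxnc1 and integrins, was the ligand with the highest level. It was at 388 and 516 CPM in mature and 761 and 642 CPM in elderly mice, a non-overlapping difference with means of 452 ± 90.6 and 701 ± 84.5 CPM (SD, n = 2 each). Its log2 fold change of 0.64 (SE 0.20, 95% interval 0.19 to 1.08) had an adjusted p of 0.185. Plxnc1, its plexin receptor, was at 179 and 147 against 150 and 198 CPM, and the groups overlapped.

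Nrp1, a co-receptor for class 3 semaphorins and for VEGF, was the member with the most counts. Its 4 libraries stood at 2448 and 2401 CPM in mature and 1805 and 2550 CPM in elderly mice. The mature pair lay within the elderly pair, and the log2 fold change was -0.15 (95% interval -0.60 to 0.29). Nrp2 was at 12.4 and 15.4 against 16.8 and 15.3 CPM, with all of its counts on a processed transcript, so that its coding transcripts could not be read.

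Plexins, the signalling receptors of semaphorins, held 9 tested members and none called. Plxnd1, which is known from endothelium, was counted at 1062 and 1327 CPM in mature and 938.7 and 1039 CPM in elderly mice. The groups did not overlap. Plxnd1 had a log2 fold change of -0.27 (95% interval -0.69 to 0.15). Of the endothelial markers 8 of 9 tested were fitted higher in elderly mice, with a median log2 fold change of 0.629 beside -0.006 over all genes. Flt4 was called higher by edgeR, DESeq2 called 2 of the markers, and Cdh5 was at 1.38 and 1.64 against 3.24 and 9.17 CPM (log2 fold change 2.05). The marker fitted lower was Pecam1, at 13.5 and 25.2 against 15.0 and 6.63 CPM, which overlap (log2 fold change -0.845). The summed CPM of the endothelial markers, Pecam1 among them, was 28.0 and 42.0 in mature and 50.7 and 48.6 in elderly libraries. Tek, Tie1 and Robo4 had 3 counts or fewer in every library on 58, 1105 and 92 countable bases. The part of endothelial cells in the Plxnd1 count was not tested. Plxna2 was at 1350 and 1337 CPM in mature and 832.6 and 1013 CPM in elderly mice, which do not overlap, with a log2 fold change of -0.54 (SE 0.19, 95% interval -0.95 to -0.13) and an adjusted p of 0.233. Plxnb1, a receptor of Sema4d, and Plxna1 overlapped between the ages at 456 to 583 and 132 to 176 CPM. Plxnb3, Plxna3, Plxna4 and Plxnb2 lay below 10 CPM in every library, and all of them but Plxna4 had fewer than 1000 countable bases.

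**Figure D4:**
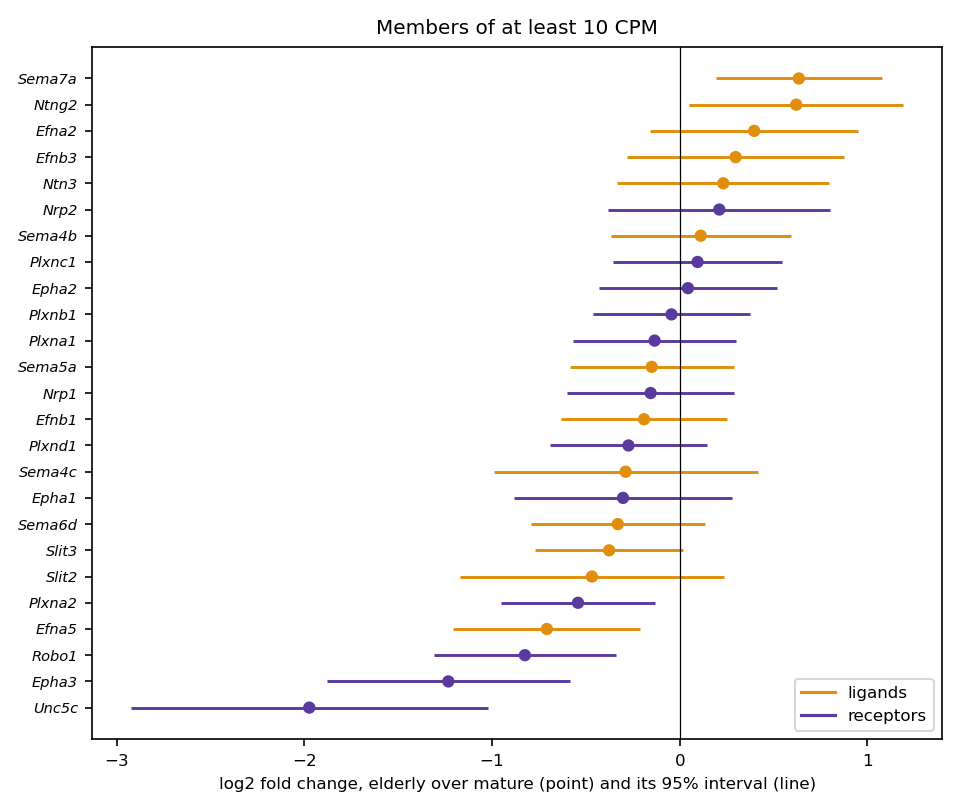
Log2 fold change of elderly over mature mice (points) with its 95% interval (lines, x axis) for the 25 members of at least 10 CPM, ligands in orange and receptors in purple. The interval of Unc5c, -2.92 to -1.02, lies farthest from 0, and most others cross 0.

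Slit3, a secreted ligand of Robos, had the highest level of the Slits. It was at 755 and 726 CPM in mature and 541 and 599.8 CPM in elderly mice, both elderly values below, with a log2 fold change of -0.38 (95% interval -0.77 to 0.02) and an adjusted p of 0.488. Slit2 was at 41.6 and 43.2 against 42.8 and 18.8 CPM, with 15% of its counts on coding transcripts, and Slit1 stayed under 1.4 CPM. Of the receptors, Robo1 was counted 3625 and 2848 times in mature and 1440 and 2854 times in elderly libraries. In CPM these are 313 and 245 against 129.7 and 185.5, with no overlap, and the log2 fold change of -0.82 (SE 0.22, 95% interval -1.31 to -0.34) had an adjusted p of 0.0935. Robo2, at 5.97 and 3.88 against 3.06 and 2.47 CPM, had a log2 fold change of -0.83 (adjusted p = 0.515), with 41.4% of its counts on coding transcripts. Robo1 had the higher level by far, 28.6 per 1000 countable bases against 0.398.

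Netrins reached a level of 13.2 per 1000 countable bases, that of Ntng2. Ntng2, a GPI-anchored netrin-G that does not bind Dcc, was at 14.2 and 13.4 CPM in mature and 23.4 and 19.1 CPM in elderly mice, without overlap, with a log2 fold change of 0.62 (adjusted p = 0.384). It had 18.5% of its counts on coding transcripts, and the transcript with the most counts was annotated for nonsense-mediated decay. Ntn3 was at 17.9 and 24.9 against 23.4 and 26.8 CPM. Ntn4, a netrin of basement membranes, was at 4.67 and 5.43 against 7.21 and 10.6 CPM, with a log2 fold change of 0.82 (adjusted p = 0.372). Ntn1, the best known ligand of Dcc and Unc5 receptors, had 1 count in all 4 libraries on 539 countable bases. Dcc had none on 3188, and Unc5d had 2 on 1212, both in elderly replicate 1. Among the netrin receptors counted as members Unc5c was thus the one with a measurable level. Unc5a and Unc5b could not be judged on 341 and 33 countable bases. Neo1, which is not a member and is among the other guidance molecules listed below, had 0 countable bases and could not be read.

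Ephrin-A ligands, which are GPI-anchored, held 5 tested members. Efna5 was at 39.9 and 40.4 CPM in mature and 22.3 and 26.8 CPM in elderly mice, with a log2 fold change of -0.71 (SE 0.23, 95% interval -1.21 to -0.21) and an adjusted p of 0.189. Efna2 lay on the other side at 15.0 and 17.1 against 20.5 and 21.9 CPM (log2 fold change 0.40, adjusted p = 0.652), and neither overlapped between ages. Among the transmembrane ephrin-B ligands Efnb1 had the highest level, at 178 and 228 against 163 and 192 CPM, and its groups overlapped. Efnb3 was at 15.8 and 15.0 against 16.5 and 21.3 CPM (log2 fold change 0.30, adjusted p = 0.76). Efnb2, the ligand known for signalling with EphB4 in bone, was at 2.60 to 4.13 CPM.

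Eph receptors are receptor tyrosine kinases that bind these ligands. Epha3, which binds Efna5 with high affinity, was counted 406 and 581 times in mature and 147 and 351 times in elderly libraries. In CPM these are 35.1 and 50.04 against 13.2 and 22.8, with no overlap. The log2 fold change was -1.23 (SE 0.30, 95% interval -1.88 to -0.58), just outside the threshold at an adjusted p of 0.0547, and 9 of 16 alternative settings called it. Epha2, the EphA receptor with the highest level, was at 98.6 and 68.8 against 89.0 and 83.7 CPM, and Epha1 at 31.4 and 27.5 against 29.0 and 18.9 CPM. Both overlapped. Among the EphB receptors the level per 1000 countable bases was 4.68 for Ephb4, 1.16 for Ephb3 and 0.133 for Ephb2. Ephb4 was at 1.04 to 1.71 CPM on 299 countable bases, Ephb3 at 0.325 to 0.991 CPM on 599, and Ephb2 at 0.631 to 1.56 CPM on 7783. Only 4.35% of the counts of Ephb4 and 0% of those of Ephb3 lay on coding transcripts.

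**Figure D5:**
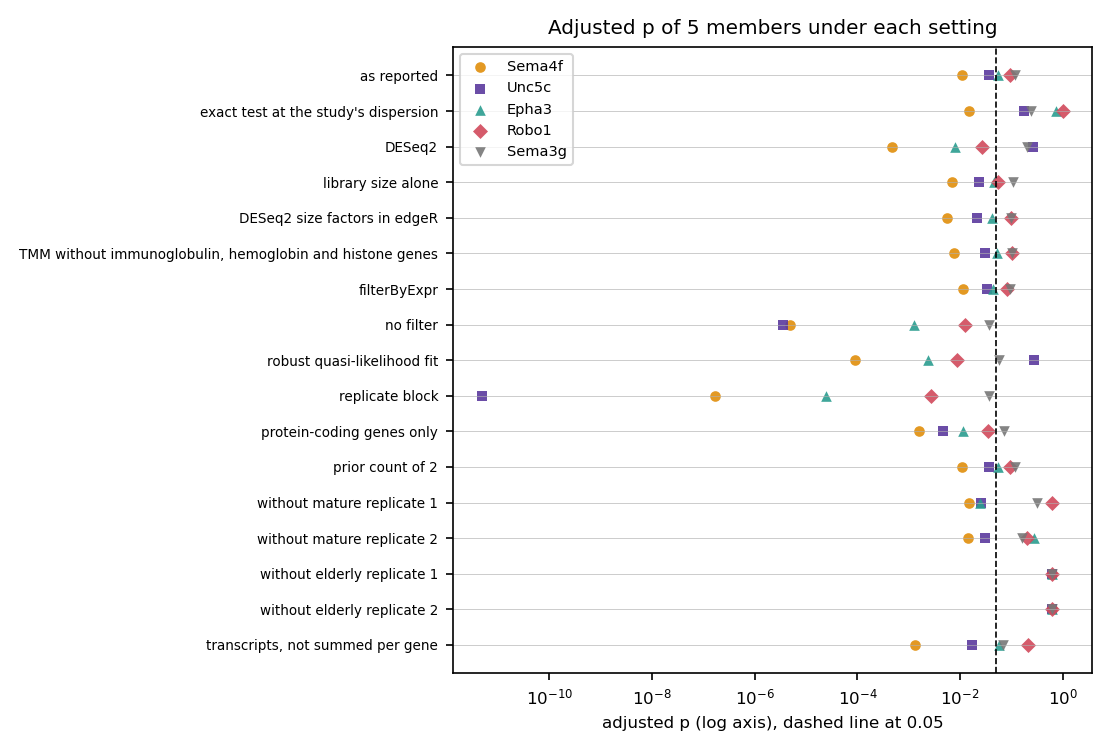
Adjusted p (x axis, log axis) of 5 members as reported and under each alternative setting (y axis), with a dashed line at 0.05. The alternative with a prior count of 2 changes only the fold change, so its adjusted p is the one reported. Sema4f lies left of the line in 14 of 16 alternatives, Unc5c in 11, Epha3 in 9, Robo1 in 5 and Sema3g in 2, and none does without either elderly library.

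The pathway around the members was described with lists of other genes. Among 17 other extracellular guidance molecules and co-receptors, 16 were in the annotation and 13 were tested, with 0 called in either direction by edgeR or DESeq2, 1 passing the unadjusted threshold of 0.05 and a median log2 fold change of -0.020. Their largest counts were those of Gpc1, a glypican, at 425 to 664.7 CPM, Rtn4rl1 at 249.9 to 429.5 CPM and Flrt2 at 205 to 229 CPM. Among 53 intracellular effectors of guidance receptors 50 were tested, with 35 fitted lower and 15 higher. None was called by edgeR or DESeq2, and 6 passed the unadjusted threshold of 0.05, 1 of them higher and 5 lower. Their median log2 fold change was -0.159. Over all genes tested 50.4% were fitted lower and 10.9% passed that threshold, beside 70% and 12% of the effectors. Both elderly libraries lay above both mature ones in 7 of these (14%) and below in 19 (38%), beside 22% and 18.9% of all genes. This difference from other genes was not tested. The effectors with the most counts were Dpysl3 and Dpysl2, collapsin response mediator proteins, at 810 to 999.9 and 627 to 787 CPM, and Rhoa, a GTPase downstream of plexins and Ephs, at 494 to 570 CPM.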

How the data were processed

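Reads from Lin-LEPR+ cells of mature and elderly mice, 2 libraries per age, were trimmed with CutAdapt, checked with FASTQC, aligned by HISAT2 to NCBI Build 37 (mm9) and counted by featureCounts in Galaxy by the authors, who deposited raw whole-number counts per Ensembl transcript without normalization. The strand setting is not given in the sources used here, so reads from overlapping genes on opposite strands may not be told apart. All 25621 transcripts with no base of their own held 0 counts, which is why levels are per countable base. Groups were taken from the sample titles, and all 4 libraries were used.

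Counts were summed per gene over GENCODE M1 (388 of 95883 transcripts, with at most 0.0888% of counts, were not matched). Records that share a member's symbol were merged. Genes with over 2 counts in all (22214) were scaled by TMM (factors 0.9696, 0.9898, 1.06 and 0.9829) and compared with edgeR 4.0.16 in R 4.3.3 (glmQLFTest, 2-sided, prior count 0.125, no covariate, Benjamini-Hochberg over all genes tested). The biological coefficient of variation was 0.265. The libraries of an age were no copies of each other, since their counts differed by more than sampling allows (chi-square over its degrees of freedom 16 for mature, 34.2 for elderly). SEs and 95% intervals came from the quasi-likelihood F statistic. With 2 against 2 libraries an exact permutation test cannot go below p = 0.333, so none was run. DESeq2 1.42.0 and edgeR's exact test at a dispersion of 0.2, the study's setting, were among the alternatives.

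Members were set by symbol, but that rule, the lists and the tests were chosen with earlier results of these data known. Members named with values were those called, those of at least 1 CPM with an absolute log2 fold change of at least 1 and no overlap, and the 2 of highest level per class. Others, such as Ntn4, Plxna1, Plxnb1 and Efnb2, were added after their values were seen.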

Additional observations from a re-analysis of the deposited data

How the results depend on the processing

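The count of members called higher in elderly mice (1) became 2 without a filter on low counts and 2 with the replicate block, and 0 to 1 with 1 library left out. The count called lower (1) became 0 by the exact test at the study's dispersion and 0 with an absolute log2 fold change over 2 required, 2 by DESeq2, by library size alone, by DESeq2's size factors, by filterByExpr and by the robust fit, 3 without a filter, 3 with the replicate block and 3 over protein-coding genes only, and 0 to 2 with 1 library left out. The genes added were Sema3g on the higher side and Epha3 and Robo1 on the lower, and DESeq2 and the robust fit did not call Unc5c (adjusted p = 0.261 and 0.272). The cause was not tested. Without elderly replicate 1, and likewise without elderly replicate 2, 0 genes of the whole table were called, so those fits say nothing about the members alone. The median log2 fold change of the members (-0.142) stayed between -0.161 and -0.033 with 1 library left out, the value nearest 0 being that without elderly replicate 1. The replicate numbers are shared by the ages but not known to pair the libraries (correlation of the deviations of same-numbered libraries 0.0431 over 14395 genes).

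Of 491 alternative fits of the 31 members named by rule, 458 kept direction and side of the threshold, 7 lost the call, 16 gained one and 10 turned direction, each of them with 1 library left out. The log2 fold change then ran from -0.219 to 0.330 for Epha2, -1.123 to 0.432 for Ephb3, -0.048 to 0.498 for Ephb4, -0.422 to 0.101 for Nrp1, -0.121 to 1.824 for Sema3f, -0.202 to 0.399 for Sema4b, -0.628 to 0.107 for Sema4c, -0.387 to 0.085 for Sema5a, -1.146 to 0.016 for Slit2 and -0.574 to 3.621 for Unc5b. None of these was called in any fit listed here. Among the 491 fits, those with a prior count of 2 could not change the adjusted p, so their side of the threshold was fixed in advance. Depth limits the members under about 1 CPM, whose intervals span several log2 units, and the number of countable bases limits Unc5b, Plxnb3, Sema3f and Epha4 at any depth.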

Other observations

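Marker lists of other cell types were counted beside the members, without a test of the lists. Called members of these lists, by edgeR's quasi-likelihood test with Benjamini-Hochberg adjustment, were mostly higher in elderly mice. Over all genes tested 1.94% were called higher and 0.423% lower. Among tested markers, 2 of 8 for B-lineage cells, 2 of 5 for plasma cells, 1 of 7 for T cells, 5 of 10 for macrophages and 4 of 8 for erythroid cells were called higher and none lower. Of the osteoblast markers 1 was called higher and 1 lower of 9, and of the chondrocyte markers 1 higher and 2 lower of 5. No marker of mural cells (7 tested), megakaryocytes (7), eosinophils (5) or adipocytes (5) was called, and by an unadjusted p under 0.05 in edgeR 1, 0, 0 and 1 of these passed. DESeq2 called 1 mural cell marker higher. Of 15 proliferation genes 6 were called higher, and of 11 immediate early genes none was called by edgeR or DESeq2, with 1 at an unadjusted p under 0.05. The summed CPM of erythroid markers was 244.8 and 101 in mature and 842.5 and 824.2 in elderly libraries.

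Markers of glia and neurons are of interest beside guidance molecules. Mbp, a myelin protein, was at 11.9 and 9.90 CPM in mature and 43.7 and 39.0 CPM in elderly mice (log2 fold change 1.92). Scn7a, a sodium channel, was at 75.2 and 74.8 against 162 and 144 CPM (log2 fold change 1.03), and Ncam1, an adhesion molecule, at 12.7 and 11.5 against 41.4 and 21.6 CPM (log2 fold change 1.37). Sox10, Prph and Elavl4 had 3 counts or fewer in every library, but on 176, 96 and 856 countable bases, so that these counts do not show the genes silent. The part of glia and neurons in the higher Sema4f count was not tested.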
